A study of Mus musculus with 24 samples.

Results

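The genes described here encode the MHC molecules of the mouse and the machinery that loads them with peptide. They were chosen by name: every gene of the count matrix whose identifier maps in the mouse annotation to a protein-coding symbol beginning with H2-, together with B2m, Tap1, Tap2, Tapbp, Psmb8, Psmb9, Psmb10, Nlrc5, Ciita and Cd74. The rule found 44 genes among the 53677 of the matrix, 34 by the H2- symbol and 10 by name. Of these, 32 belong to the class I arm, 11 to the class II arm, and 1, H2-Ke6, encodes a steroid dehydrogenase that carries an H2- symbol only by its position. Enough reads for a test were found for 27 of the 44, 19 in the class I arm and 8 in the class II arm. The rule did not use any measured value.

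The livers came from 129S1/SvImJ mice on a high-fat diet (HFD, n = 6), 129S1/SvImJ mice on chow (n = 5), C57BL/6J mice on HFD (n = 7) and C57BL/6J mice on chow (n = 6). All 24 mice were of inbred strains with no engineered allele named in the labels, and each gave 1 library of RNA depleted of ribosomal RNA. The labels do not state how old the mice were, what the diets contained or how long they were fed. The comparisons ask how diet acts in each strain, how the strains differ on each diet, and whether the diet effects differ between strains.

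Class I molecules pair a heavy chain with beta-2-microglobulin, and nearly all nucleated cells, hepatocytes included, display on them peptides from their own cytosol. Those peptides are cut by the proteasome, of which an interferon-inducible form carries the subunits Psmb8, Psmb9 and Psmb10, and are carried into the endoplasmic reticulum by the Tap1 and Tap2 transporter and loaded with the help of tapasin (Tapbp). Class II molecules are made mainly by macrophages, dendritic cells and B cells and present peptides from taken-up material. NLRC5 drives transcription of class I genes and CIITA that of class II genes, both through a shared set of promoter elements.

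The promoter stretches of the heavy chains that the results turn on show which letters of such elements are found in neighbouring class I genes. They are given 5' to 3' on the coding strand from RefSeq (GRCm38.p6), which had a promoter for 37 of the 44 members, within the 250 bases before the start site. Capitals mark GGGATTCCC (the kind of site bound by NF-kB), GAANNGAAA or GAAANNGAA (bound by interferon regulatory factors), TGACG (the core of the X2 element) and ATTGG (the CCAAT element, called Y in MHC promoters), each searched on both strands, with overlapping matches joined.
H2-K1: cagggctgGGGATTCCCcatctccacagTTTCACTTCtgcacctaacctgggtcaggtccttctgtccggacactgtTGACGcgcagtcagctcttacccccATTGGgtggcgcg
H2-D1: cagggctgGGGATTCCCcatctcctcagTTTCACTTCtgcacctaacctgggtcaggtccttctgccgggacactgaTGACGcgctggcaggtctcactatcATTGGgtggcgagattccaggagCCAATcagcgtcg
H2-Q6: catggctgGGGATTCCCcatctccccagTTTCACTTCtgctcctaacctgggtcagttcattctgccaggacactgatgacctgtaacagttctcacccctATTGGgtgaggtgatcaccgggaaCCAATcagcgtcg
H2-Q7: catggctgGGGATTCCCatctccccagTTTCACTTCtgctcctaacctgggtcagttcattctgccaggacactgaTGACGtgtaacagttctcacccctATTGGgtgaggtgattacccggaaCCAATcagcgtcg
H2-Q4: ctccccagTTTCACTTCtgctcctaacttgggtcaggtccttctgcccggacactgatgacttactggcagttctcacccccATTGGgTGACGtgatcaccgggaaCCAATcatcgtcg
H2-Q10: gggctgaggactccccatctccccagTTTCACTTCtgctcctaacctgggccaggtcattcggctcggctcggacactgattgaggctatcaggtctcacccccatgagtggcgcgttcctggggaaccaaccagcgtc
B2m: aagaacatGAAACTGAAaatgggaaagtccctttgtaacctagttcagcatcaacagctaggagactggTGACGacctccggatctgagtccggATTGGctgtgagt
H2-K1 lies on the minus strand at chr17:34000351-34000465. The plus-strand stretches are H2-D1 at chr17:35262916-35263053, H2-Q6 at chr17:35424670-35424807, H2-Q7 at chr17:35439015-35439151, H2-Q4 at chr17:35379456-35379574, H2-Q10 at chr17:35469908-35470046 and B2m at chr2:122147540-122147646. GGGATTCCC was found in 4 of the 28 class I members with a promoter, H2-K1, H2-D1, H2-Q6 and H2-Q7. It was found in 0.301% of all 32851 promoters of the same length. GAANNGAAA was found in 8 of the 28 class I members against 6.31% of all promoters, and GAAANNGAA in B2m, H2-T22 and H2-T23 against 7.13%. Of the letters searched, the H2-Q10 stretch holds GAANNGAAA only, whereas H2-Q4, also of the Q region, in addition holds TGACG (17.8% of all promoters) and ATTGG (33.8%). In H2-Q4 TGACG lies just after ATTGG, not before it as in H2-K1, H2-D1, H2-Q7 and B2m. A match of letters is a description of the sequence and not evidence of binding. All 8 class II promoters that could be read hold ATTGG, and none holds GGGATTCCC or either interferon-type motif. Of the 8, only H2-Aa holds TGACG. No promoter was found for H2-Ab1, so the stretches of the chains H2-Aa and H2-Eb1 are given.
H2-Aa: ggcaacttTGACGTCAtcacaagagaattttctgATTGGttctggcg
H2-Eb1: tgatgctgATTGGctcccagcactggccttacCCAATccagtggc
H2-Aa lies on the minus strand at chr17:34287859-34287905 and H2-Eb1 on the plus strand at chr17:34305800-34305844.

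A liver of 129S1/SvImJ on HFD gave between 6707013 and 13035534 counts, of which the 44 genes held 0.288% to 0.388%. A liver of 129S1/SvImJ on chow gave between 7607255 and 9184270 counts, and the genes held 0.347% to 0.383%. In C57BL/6J on HFD the totals were between 8294723 and 13124881 with 0.420% to 0.654%, and in C57BL/6J on chow between 10162138 and 12826048 with 0.432% to 0.505%. Replicate 2 of C57BL/6J on HFD stood apart from its group in many members, mostly class II. Hepatocyte markers summed to between 82104 and 124105 CPM (counts per library, scaled to a common total) in every library, so the tissue matched its label. Reads of both strains were counted on mm10, a genome made from C57BL/6J, and how many 129S1/SvImJ reads of the polymorphic class I genes it captured was not analysed here. Because whole liver was sequenced, fewer cells of a type and less RNA per cell cannot be told apart.

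Levels per length of transcript put 4 class I genes, B2m, H2-Q10, H2-K1 and H2-D1, above every class II gene. As the mean of all 24 libraries, B2m, the light chain shared by all class I molecules, reached 1106 CPM per kb. H2-Q10, a secreted class Ib heavy chain known for its liver expression, reached 334 CPM per kb, and the classical heavy chains H2-K1 and H2-D1 reached 281 and 118.5 CPM per kb. Cd74, the invariant chain that guards the class II groove, was the highest of the class II arm at 43.2 CPM per kb, and the class II chains H2-Eb1, H2-Ab1 and H2-Aa reached 12.3, 9.09 and 7.58 CPM per kb. The transactivators were low, with 6.45 CPM per kb for Nlrc5 and 0.683 CPM per kb for Ciita. Of the 17 genes not tested, 7 had no count in any library and the highest, H2-DMb2, had 154 counts over all 24. They comprise 11 of the 12 H2-M genes, a group that includes heavy chains known from vomeronasal neurons, H2-Q2, H2-T3, H2-Eb2, H2-Oa, H2-DMb2 and H2-Ke6.

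Class I genes were lower in 129S1/SvImJ livers than in C57BL/6J livers on both diets. The 32 class I genes summed to 2837 to 3585 CPM in 129S1/SvImJ on HFD, against 4127 to 5751 CPM in C57BL/6J on HFD. On chow they summed to 3346 to 3777 CPM in 129S1/SvImJ, against 4289 to 4962 CPM in C57BL/6J. No 129S1/SvImJ liver reached the lowest C57BL/6J liver on either diet. On HFD, 16 of 19 tested class I genes were lower in 129S1/SvImJ at an adjusted p under 0.05 and none was higher, where 17.9% of all 14533 tested genes were called higher, 19.1% lower and 37% in either direction (edgeR quasi-likelihood test). On chow, 14 of 19 were lower and none higher, where 12.6% of all tested genes were called higher, 12.5% lower and 25% in either direction. The median log2 fold change of the class I genes was -0.64 on HFD and -0.68 on chow, beside medians of 0.00 and 0.01 over all tested genes. The values of the 2 strains did not overlap at all for 12 class I genes on HFD and 11 on chow, all lower in 129S1/SvImJ, where 7.18% of all tested genes were lower and 7.88% higher without overlap on HFD, and 7.65% lower and 7.49% higher on chow. The diet and strain comparisons share groups: each group stands in a pair of them.

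**Figure D1:**
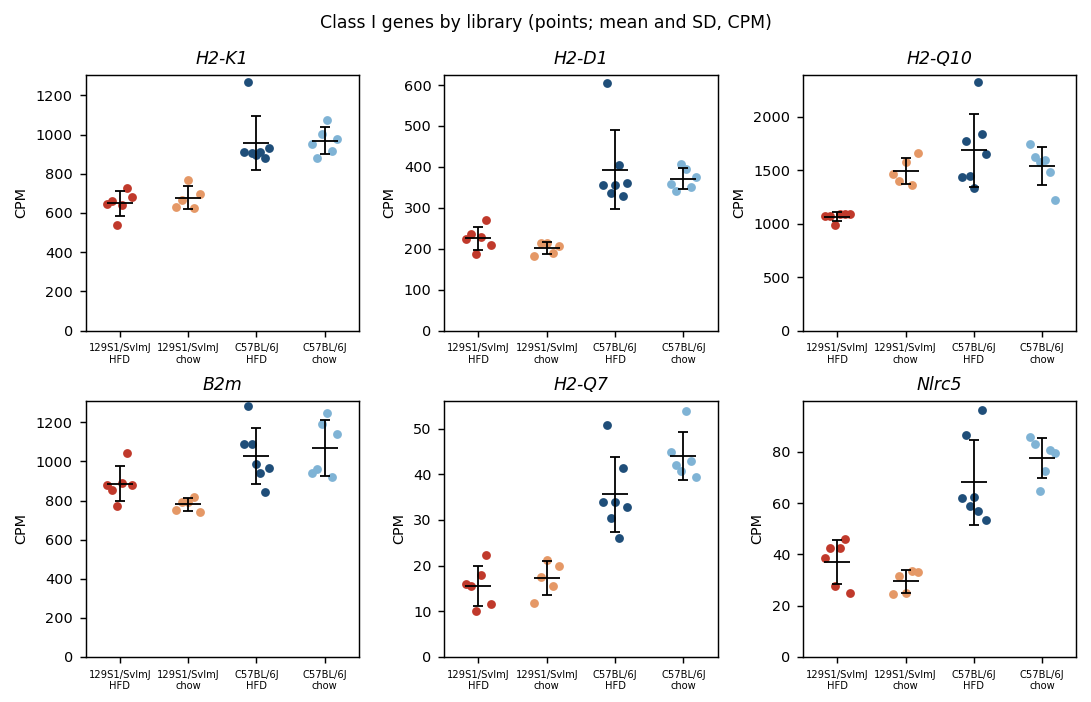
CPM of 6 class I genes in each liver (points), with the mean and SD of each group (black lines), for 129S1/SvImJ on HFD (n = 6) and chow (n = 5) and C57BL/6J on HFD (n = 7) and chow (n = 6). H2-K1, H2-D1, H2-Q7 and Nlrc5 lie lower in 129S1/SvImJ on both diets, whereas H2-Q10 lies apart only in 129S1/SvImJ on HFD.

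H2-K1, a classical heavy chain that presents peptides to CD8+ T cells, had 538 to 728 CPM (median 655) in 129S1/SvImJ on HFD, against 879.9 to 1269.7 CPM (median 912) in C57BL/6J on HFD. In 129S1/SvImJ on chow it had 630.1, 667, 768, 624 and 696 CPM, against 878 to 1076 CPM (median 965) in C57BL/6J on chow. Every 129S1/SvImJ liver was below every C57BL/6J liver. Its level in 129S1/SvImJ was 0.678 times that in C57BL/6J on HFD (log2 fold change -0.56, SE 0.08, edgeR adjusted p = 7.95e-06) and 0.699 times on chow (-0.52, SE 0.09, edgeR adjusted p = 0.00011).

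The other classical chain, H2-D1, had 187 to 271 CPM (median 226) in 129S1/SvImJ on HFD, against 329.8 to 604 CPM (median 357) in C57BL/6J on HFD. It had 181, 214, 215, 191 and 206 CPM in 129S1/SvImJ on chow, against 340.5 to 408 CPM (median 367) in C57BL/6J on chow. The strains did not overlap on either diet. The log2 fold change was -0.80 on HFD (SE 0.11, edgeR adjusted p = 2.27e-06) and -0.88 on chow (SE 0.12, edgeR adjusted p = 2.85e-06).

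B2m, their light chain, was called on chow only. It had 773 to 1044 CPM (median 879) in 129S1/SvImJ on HFD, against 841 to 1283 CPM (median 985) in C57BL/6J on HFD, and the ranges overlapped. It had 751, 795, 795, 817 and 743 CPM in 129S1/SvImJ on chow, against 921 to 1249 CPM (median 1049) in C57BL/6J on chow, without overlap. B2m was lower in 129S1/SvImJ on chow (log2 fold change -0.45, SE 0.10, edgeR adjusted p = 0.00108). On HFD the log2 fold change was -0.21 (SE 0.09, edgeR adjusted p = 0.0627).

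Nlrc5, the class I transactivator on chromosome 8, was lower in 129S1/SvImJ as well. It had 25.1 to 46.0 CPM (median 40.5) in 129S1/SvImJ on HFD, against 53.6 to 96.4 CPM (median 62.0) in C57BL/6J on HFD. In 129S1/SvImJ on chow it had 24.5, 31.5, 25.0, 33.4 and 32.9 CPM, against 64.8 to 86.0 CPM (median 80.3) in C57BL/6J on chow. The strains did not overlap on either diet. Its level was 0.548 times that in C57BL/6J on HFD (log2 fold change -0.87, edgeR adjusted p = 6.19e-05) and 0.379 times on chow (-1.40, edgeR adjusted p = 6.8e-07).

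Among the class I genes, H2-Q1 and H2-Q6 of the Q region had the lowest strain log2 fold changes on both diets. H2-Q6 and H2-Q7 encode the Qa-2 antigen, a class Ib molecule. H2-Q7 had 10.1 to 22.2 CPM (median 15.8) in 129S1/SvImJ on HFD, against 26.1 to 50.9 CPM (median 33.9) in C57BL/6J on HFD. It had 11.7, 17.6, 21.3, 15.6 and 19.8 CPM in 129S1/SvImJ on chow, against 39.4 to 53.9 CPM (median 42.5) in C57BL/6J on chow, so the strains were separate on both diets. Its log2 fold change was -1.18 on HFD and -1.35 on chow (edgeR adjusted p = 5.02e-06 and 4.12e-06). H2-Q6 gave -1.70 on HFD and -1.56 on chow (edgeR adjusted p = 6.61e-07 and 1.26e-05), and H2-Q4 gave -0.64 and -0.63 (edgeR adjusted p = 0.00031 and 0.00158), again without overlap. H2-Q1 had the lowest log2 fold change of all tested members, -3.49 on HFD (edgeR adjusted p = 8.58e-05) and -2.88 on chow (edgeR adjusted p = 0.00472). Its levels were scattered, from 1.02 to 2.32 CPM in 129S1/SvImJ on HFD against 3.13 to 49.4 CPM in C57BL/6J on HFD, and from 0.523 to 2.89 CPM in 129S1/SvImJ on chow against 2.88 to 17.9 CPM in C57BL/6J on chow. H2-K1, H2-D1 and the Q, T and M genes are close in sequence, so the split of reads among them is uncertain.

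In the T region, H2-T23, which encodes the Qa-1 molecule that engages natural killer cell receptors, had 67.8 to 84.5 CPM (median 77.4) in 129S1/SvImJ on HFD, against 91.1 to 128 CPM (median 112) in C57BL/6J on HFD. On chow it ran from 72.8 to 105 CPM in 129S1/SvImJ, against 122 to 145 CPM in C57BL/6J, and neither pair overlapped. The log2 fold change was -0.53 on each diet (edgeR adjusted p = 6.76e-06 on HFD and 3.24e-05 on chow). H2-T22, a ligand of some gamma-delta T cell receptors, gave -0.63 on HFD and -0.71 on chow (edgeR adjusted p = 2.27e-06 and 2.3e-06). H2-T24 was not called: it had 4.59 to 7.24 CPM in 129S1/SvImJ on HFD against 4.11 to 6.91 CPM in C57BL/6J on HFD, with log2 fold changes of 0.15 on HFD and 0.39 on chow (edgeR adjusted p = 0.441 and 0.0821). H2-M3, which presents formylated bacterial peptides, ran from 0.919 to 4.47 CPM over all livers and gave -0.64 on HFD and -0.78 on chow (edgeR adjusted p = 0.0426 and 0.0487). Leaving out 1 library at a time kept its call in 15 of 24 fits on HFD and 7 of 24 on chow, and each of the 5 libraries of 129S1/SvImJ on chow ended the call on chow (edgeR adjusted p at most 0.113 and 0.132).

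H2-Q10 was the only heavy chain called for diet, and it was called in 129S1/SvImJ. It had 985 to 1092 CPM (median 1079) in 129S1/SvImJ on HFD, against 1461, 1401, 1571, 1362 and 1660.4 CPM in 129S1/SvImJ on chow. All 6 livers on HFD lay below all 5 on chow. It had 1329.8 to 2326 CPM (median 1647) in C57BL/6J on HFD, against 1223 to 1746 CPM (median 1586) in C57BL/6J on chow, and the ranges overlapped in part. In 129S1/SvImJ it fell on HFD to 0.714 times its level on chow (log2 fold change -0.49, SE 0.11, edgeR adjusted p = 0.00463), and in C57BL/6J the log2 fold change was 0.13 (SE 0.10, 95% interval -0.08 to 0.34, edgeR adjusted p = 0.43). The strains differed on HFD (-0.66, edgeR adjusted p = 1.13e-05) and on chow the log2 fold change was -0.05 (95% interval -0.27 to 0.18, edgeR adjusted p = 0.802). The difference between the diet effects, 129S1/SvImJ minus C57BL/6J, was -0.61 (95% interval -0.92 to -0.31) and missed the threshold with edgeR (adjusted p = 0.061). It passed with DESeq2 (adjusted p = 0.00954) and in 2 of 24 fits that left out 1 library, replicate 4 of 129S1/SvImJ on chow or replicate 4 of C57BL/6J on HFD.

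Among the genes that supply and load peptides, the immunoproteasome subunit Psmb9 rose on HFD in both strains. Psmb9 had 9.63 to 15.5 CPM (median 11.9) in 129S1/SvImJ on HFD, against 7.05, 8.06, 5.40, 5.85 and 9.71 CPM in 129S1/SvImJ on chow, where only the highest chow liver reached the lowest on HFD. It had 16.4 to 36.2 CPM (median 19.3) in C57BL/6J on HFD, against 9.56 to 16.1 CPM (median 11.5) in C57BL/6J on chow, without overlap. Psmb9 thus rose on HFD in both strains, by log2 fold changes of 0.73 in 129S1/SvImJ (SE 0.20, edgeR adjusted p = 0.0204) and 0.81 in C57BL/6J (SE 0.17, edgeR adjusted p = 0.00206). It was also lower in 129S1/SvImJ than in C57BL/6J on HFD (-0.81, edgeR adjusted p = 0.000501) and on chow (-0.74, edgeR adjusted p = 0.00797). Psmb9 shares 212 bases with Tap1 on the opposite strand (chr17:34187553-34187764, mm10), and whether the counting used strand is not stated.

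Psmb8 had 13.1 to 21.7 CPM (median 14.01) in 129S1/SvImJ on HFD, against 6.55, 9.74, 13.5, 8.54 and 10.9 CPM in 129S1/SvImJ on chow, overlapping in 1 chow liver. It had 18.5 to 31.7 CPM (median 20.8) in C57BL/6J on HFD, against 15.04 to 23.9 CPM (median 19.0) in C57BL/6J on chow. Psmb8 rose on HFD in 129S1/SvImJ (log2 fold change 0.64, SE 0.18, edgeR adjusted p = 0.024), and in C57BL/6J the log2 fold change was 0.17 (95% interval -0.14 to 0.48, edgeR adjusted p = 0.501). The difference between those effects was 0.47 (95% interval -0.01 to 0.95, edgeR adjusted p = 0.366). Between strains Psmb8 was lower in 129S1/SvImJ on HFD (-0.53, edgeR adjusted p = 0.00832) and on chow (0.5002 times the C57BL/6J level, edgeR adjusted p = 0.000141). Psmb10 had 16.1 to 21.04 CPM in 129S1/SvImJ on HFD against 18.1 to 29.6 CPM in C57BL/6J on HFD, or -0.30 on the log2 scale (edgeR adjusted p = 0.0377), a call that 7 of 24 fits leaving out 1 library lost, with adjusted p up to 0.105 without replicate 2 of C57BL/6J on HFD. On chow it gave -0.27 (edgeR adjusted p = 0.121).

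Tap1 had 26.2 to 32.1 CPM (median 29.3) in 129S1/SvImJ on HFD, against 44.8 to 85.0 CPM (median 49.0) in C57BL/6J on HFD. It had 27.0, 28.6, 26.3, 16.3 and 25.9 CPM in 129S1/SvImJ on chow, against 36.2 to 45.5 CPM (median 37.9) in C57BL/6J on chow. The strains were separate on both diets, with log2 fold changes of -0.93 on HFD (edgeR adjusted p = 6.27e-06) and -0.68 on chow (edgeR adjusted p = 0.00124). Tap1 rose on HFD in C57BL/6J (0.48, SE 0.13, edgeR adjusted p = 0.0143), with some overlap, and gave 0.24 in 129S1/SvImJ (SE 0.15, edgeR adjusted p = 0.345).

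Tap2, the partner chain of Tap1, was not called between strains. It had 25.5 to 30.3 CPM (median 28.9) in 129S1/SvImJ on HFD, against 22.4 to 30.1 CPM in 129S1/SvImJ on chow, and 27.9 to 39.7 CPM (median 30.5) in C57BL/6J on HFD, against 23.2 to 26.9 CPM (median 24.7) in C57BL/6J on chow. The C57BL/6J diets were separate, and Tap2 rose on HFD there (0.38, SE 0.09, edgeR adjusted p = 0.00389), against 0.05 in 129S1/SvImJ (SE 0.10, edgeR adjusted p = 0.791). The difference between the diet effects was -0.33 (95% interval -0.60 to -0.06, edgeR adjusted p = 0.235). The strain log2 fold changes were -0.20 on HFD (95% interval -0.38 to -0.03, edgeR adjusted p = 0.0654) and 0.13 on chow (edgeR adjusted p = 0.378). Tapbp was lower in 129S1/SvImJ on HFD, with 80.2 to 102 CPM against 102 to 147 CPM in C57BL/6J (-0.35, edgeR adjusted p = 0.00103), and gave -0.14 on chow (edgeR adjusted p = 0.271).

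**Figure D2:**
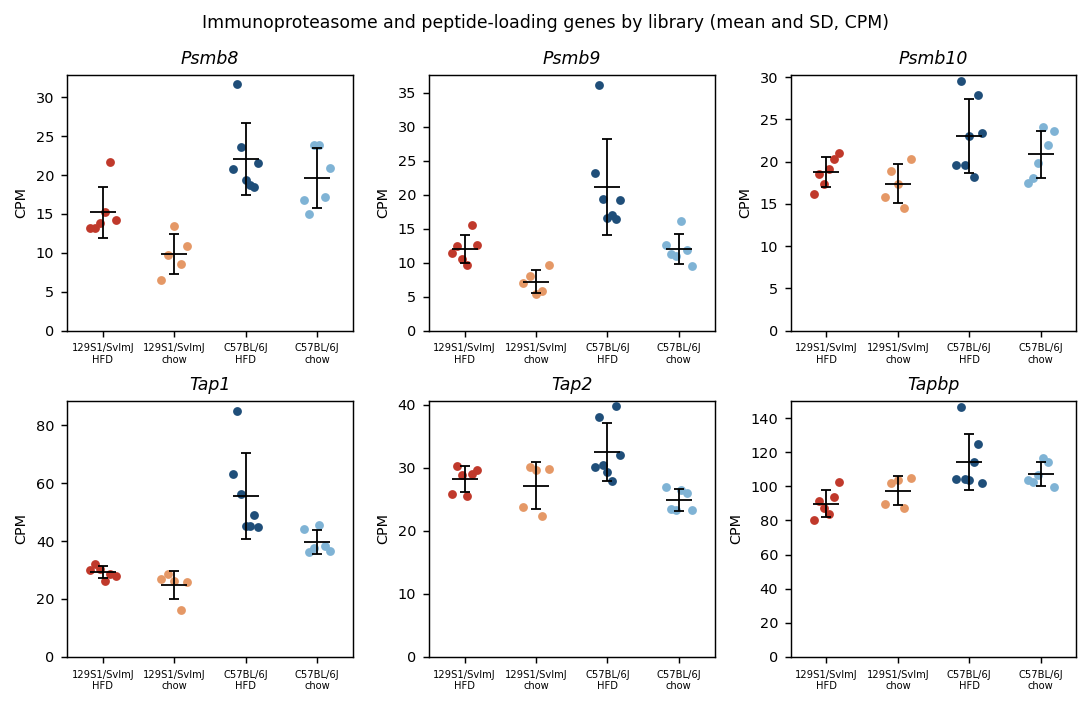
CPM of 3 immunoproteasome subunits (upper row) and 3 peptide transport and loading genes (lower row) in each liver (points), with the mean and SD of each group. Psmb9 is higher on HFD than on chow in both strains, Tap1 is lower in 129S1/SvImJ on both diets, and Tap2 is higher on HFD in C57BL/6J without overlap.

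Few of the 27 tested members were called for diet, at shares near those of all tested genes. In 129S1/SvImJ, 3 of 27 tested members were called, Psmb8 and Psmb9 higher and H2-Q10 lower, beside 10.4% of all tested genes (5.41% higher and 5.01% lower). In C57BL/6J, 3 of 27 were called, Psmb9, Tap1 and Tap2, all higher, beside 14.9% of all tested genes (7.66% higher and 7.2% lower). The diets did not overlap for 1 member in 129S1/SvImJ, H2-Q10, lower on HFD, where 3.96% of all tested genes were higher and 3.78% lower without overlap. They did not overlap for Psmb9 and Tap2 in C57BL/6J, both higher on HFD, where 1.78% were higher and 2.11% lower. Shares of members near the background are no result about the members as a list. The median class I log2 fold change was 0.11 in 129S1/SvImJ and 0.09 in C57BL/6J. In C57BL/6J all 3 calls held in each of 24 fits that left out 1 library. In 129S1/SvImJ the Psmb8 and Psmb9 calls each failed in 4 of 24 fits: without replicate 1 of chow, replicate 4 of chow or replicate 5 of HFD, and for Psmb8 also replicate 2 of chow, for Psmb9 also replicate 3 of chow. The edgeR adjusted p was then at most 0.0894 for Psmb8 and 0.0571 for Psmb9. No member passed the test of the difference between the diet effects in edgeR, beside 0.296% of all tested genes, and 1 passed in DESeq2. At an unadjusted p under 0.05 the members were H2-Q10, Nlrc5 and Tap2. For Nlrc5 the difference was 0.53 (95% interval 0.08 to 0.98, edgeR adjusted p = 0.263).

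**Figure D3:**
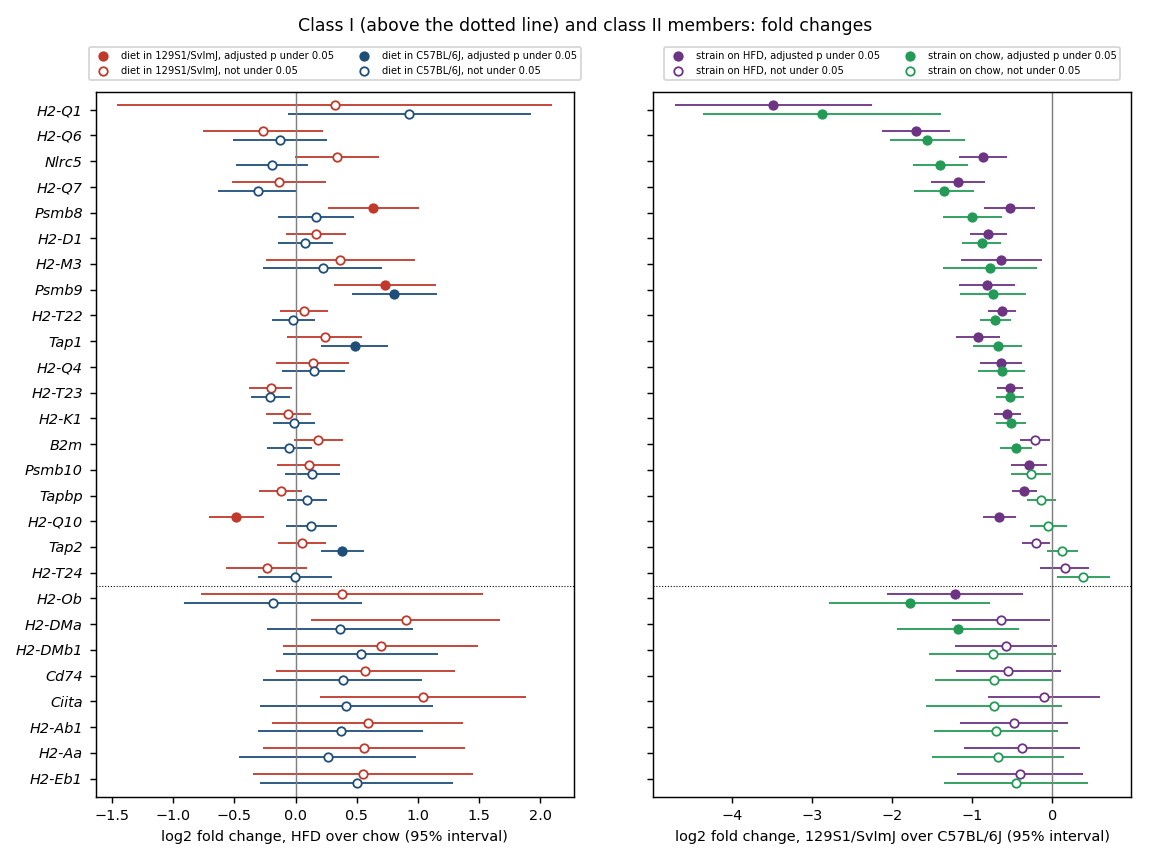
Log2 fold changes with 95% intervals of the 27 tested members, for HFD over chow in each strain (left) and for 129S1/SvImJ over C57BL/6J on each diet (right); filled points have an adjusted p under 0.05. Class I genes lie above the dotted line with narrow intervals, apart from H2-Q1, and mostly left of 0 in the strain panel, and class II genes lie below it with wide intervals.

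The class II arm varied from mouse to mouse more than the class I arm. The SD of log2 CPM within groups had a median of 0.60 over the 8 tested class II genes and 0.25 over the 19 class I genes, beside 0.22 over all tested genes. The median SE of a log2 fold change was accordingly 0.33 to 0.39 for class II genes, against 0.13 to 0.14 for class I genes, in the diet and strain comparisons. The chains H2-Aa, H2-Ab1 and H2-Eb1 and Cd74 rose and fell together across livers. After group means were removed, their log2 CPM correlated pairwise with r of 0.98 to 0.99 over 24 libraries. That is a description across livers that share depth and cell content. Among H2-K1, H2-D1, B2m, Tap1 and Nlrc5, r ran from 0.06 to 0.89 (median 0.44). Between these genes and the class II chains and Cd74, r ran from 0.33 to 0.86 (median 0.59).

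Cd74 had 30.2 to 117 CPM (median 64.3) in 129S1/SvImJ on HFD, against 29.6, 35.9, 78.2, 40.7 and 39.0 CPM in 129S1/SvImJ on chow. It had 60.2 to 214 CPM (median 78.8) in C57BL/6J on HFD, against 54.6 to 97.8 CPM (median 69.8) in C57BL/6J on chow. All 4 groups overlapped one another. Its log2 fold changes were 0.57 for diet in 129S1/SvImJ, 0.38 for diet in C57BL/6J, -0.55 for strain on HFD and -0.74 for strain on chow, and none was called (edgeR adjusted p = 0.341, 0.451, 0.182 and 0.139). Without replicate 2 of C57BL/6J on HFD, the log2 fold change was 0.06 for diet in C57BL/6J and -0.23 for strain on HFD. Without replicate 3 of 129S1/SvImJ on chow, Cd74 was called for strain on chow (edgeR adjusted p = 0.0432).

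H2-Aa, the alpha chain of the I-A molecule, had 10.3 to 51.7 CPM (median 27.3) in 129S1/SvImJ on HFD, against 11.5 to 31.7 CPM in 129S1/SvImJ on chow. It had 19.2 to 83.7 CPM (median 27.5) in C57BL/6J on HFD, against 20.7 to 39.4 CPM (median 28.3) in C57BL/6J on chow. H2-Ab1, its partner, and H2-Eb1, the beta chain of the I-E molecule, had the same spread, up to 71.0 and 77.4 CPM in replicate 2 of C57BL/6J on HFD. Over the 3 chains the log2 fold changes ran from 0.55 to 0.59 for diet in 129S1/SvImJ, 0.26 to 0.50 for diet in C57BL/6J, -0.48 to -0.38 for strain on HFD and -0.70 to -0.45 for strain on chow, with no call. Without replicate 2 of C57BL/6J on HFD they were -0.09 for H2-Aa, 0.02 for H2-Ab1 and 0.10 for H2-Eb1 for diet in C57BL/6J. For strain on HFD they were then -0.03 for H2-Aa, -0.13 for H2-Ab1 and -0.00 for H2-Eb1.

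Ciita, the class II transactivator, had 2.97 to 13.6 CPM (median 7.17) in 129S1/SvImJ on HFD, against 2.47, 4.19, 4.18, 3.26 and 4.20 CPM in 129S1/SvImJ on chow. It had 4.20 to 21.02 CPM (median 5.95) in C57BL/6J on HFD, against 4.32 to 8.79 CPM (median 5.70) in C57BL/6J on chow. The strains did not overlap on chow, the highest 129S1/SvImJ liver lying just under the lowest C57BL/6J liver. The log2 fold change for diet in 129S1/SvImJ was 1.04 (95% interval 0.20 to 1.88, edgeR adjusted p = 0.109), which DESeq2 called (adjusted p = 0.0451) and edgeR called without replicate 2 of C57BL/6J on HFD. For strain on chow it was -0.73 (edgeR adjusted p = 0.217), which passed when only the groups compared were fitted (edgeR adjusted p = 0.0192).

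The peptide-exchange genes held the class II calls. H2-DMa, a chain of the DM molecule that swaps peptides in the class II groove, had 0.989, 1.256, 2.56, 1.012 and 1.18 CPM in 129S1/SvImJ on chow, against 2.32 to 3.56 CPM (median 3.33) in C57BL/6J on chow. Only replicate 3 of 129S1/SvImJ reached the C57BL/6J range. H2-DMa was lower in 129S1/SvImJ on chow (log2 fold change -1.18, SE 0.37, edgeR adjusted p = 0.0196), a call lost without replicate 1 or replicate 4 of 129S1/SvImJ on chow (adjusted p up to 0.0537). On HFD it had 1.35 to 4.16 CPM in 129S1/SvImJ, against 2.23 to 9.75 CPM in C57BL/6J (-0.64, edgeR adjusted p = 0.091). That value was -0.28 without replicate 2 of C57BL/6J on HFD, and it was called without replicate 5 of 129S1/SvImJ on HFD (edgeR adjusted p = 0.0369). H2-DMb1, the other DM chain, gave -0.58 on HFD and -0.74 on chow (edgeR adjusted p = 0.149 and 0.17). The value on HFD was -0.27 without replicate 2 of C57BL/6J on HFD, and the one on chow passed when only the groups compared were fitted (edgeR adjusted p = 0.0348).

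H2-Ob, a chain of the DO molecule that restrains DM and is known from B cells, had 0.0899 to 1.24 CPM (median 0.447) in 129S1/SvImJ on HFD, against 0.358 to 2.34 CPM (median 1.39) in C57BL/6J on HFD. It had 0.495, 0.628, 0.270, 0.225 and 0.394 CPM in 129S1/SvImJ on chow, against 0.930 to 2.41 CPM (median 1.23) in C57BL/6J on chow. The strains were separate on chow. Its log2 fold change was -1.22 on HFD (SE 0.41, edgeR adjusted p = 0.0215) and -1.78 on chow (SE 0.49, edgeR adjusted p = 0.00817). The HFD call was lost without replicate 2 of C57BL/6J on HFD (adjusted p = 0.0608) and without replicate 2 or 3 of 129S1/SvImJ on HFD. These are few reads, 244 in all 24 libraries, and H2-Oa, its partner, had 47 and was not tested.

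**Figure D4:**
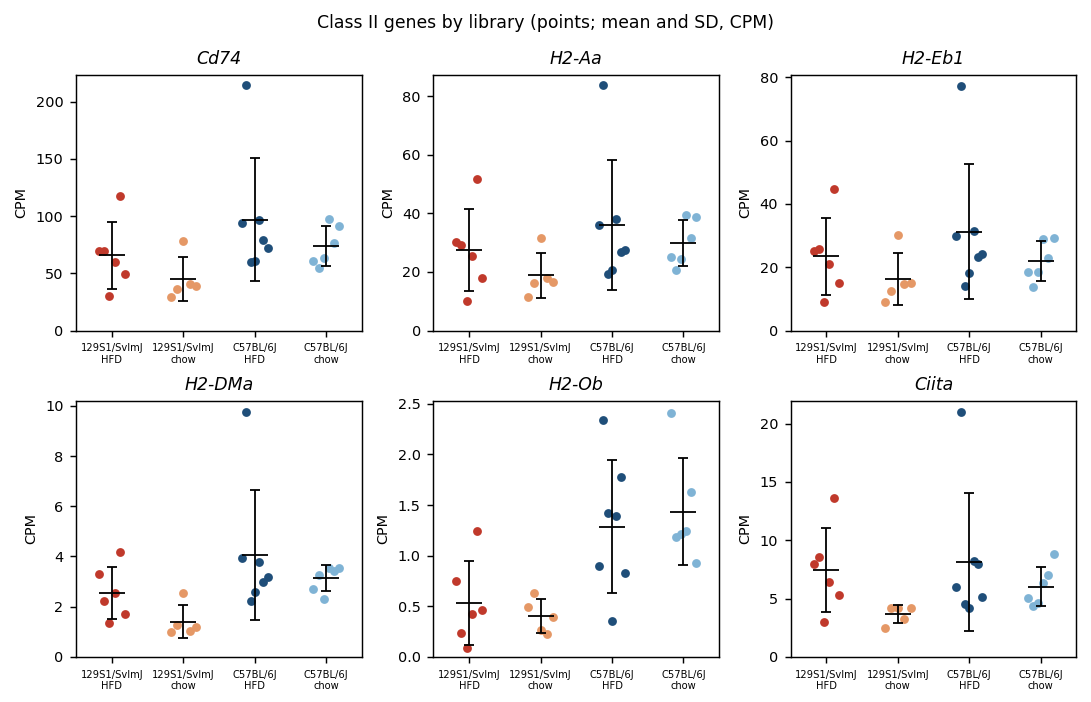
CPM of 6 class II genes in each liver (points), with the mean and SD of each group. Replicate 2 of C57BL/6J on HFD is the highest point for Cd74, H2-Aa, H2-Eb1, H2-DMa and Ciita, and the groups overlap for Cd74, H2-Aa and H2-Eb1.

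As an arm, 1 of 8 tested class II genes was lower in 129S1/SvImJ on HFD and 2 of 8 on chow, where 19.1% and 12.5% of all tested genes were, with 4 of 8 on chow when only the groups compared were fitted, and edgeR called none for diet in either strain. At an unadjusted p under 0.05, Ciita and H2-DMa were higher on HFD in 129S1/SvImJ and 0 of 8 differed in C57BL/6J, and DESeq2 called Ciita in 129S1/SvImJ. The median log2 fold change was -0.52 for strain on HFD, -0.73 for strain on chow, 0.58 for diet in 129S1/SvImJ and 0.38 for diet in C57BL/6J. The strain medians were thus close to those of the class I arm, and the calls were fewer with SEs wider than in class I. All 8 class II values lay above 0 for diet in 129S1/SvImJ and 7 of 8 in C57BL/6J, but these genes shift together in each liver and are not 8 independent observations. Without replicate 2 of C57BL/6J on HFD the median for diet in C57BL/6J was 0.01 and that for strain on HFD was -0.18. Without replicate 5 of 129S1/SvImJ on HFD the median for diet in 129S1/SvImJ was 0.34, and without replicate 3 of 129S1/SvImJ on chow it was 0.87.

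The 14 markers of Kupffer cells and macrophages summed to 189 to 459 CPM in 129S1/SvImJ on HFD, against 394 to 954 CPM in C57BL/6J on HFD, and to 121 to 299 CPM in 129S1/SvImJ on chow, against 381 to 618 CPM in C57BL/6J on chow. All 14 were lower in 129S1/SvImJ on chow (median log2 fold change -1.25) and 11 of 14 on HFD (median -0.80). Of all tested genes, 12.5% were called lower on chow and 19.1% on HFD. For diet, 2 of 14 rose on HFD in 129S1/SvImJ, Mpeg1 (1.07, edgeR adjusted p = 0.0115) and C1qa (0.72, edgeR adjusted p = 0.033), where 5.41% of all tested genes rose. The median log2 fold change of the 14 was 0.71 in 129S1/SvImJ and 0.26 in C57BL/6J. On the plot of sums against markers, replicate 2 of C57BL/6J on HFD was the highest of all 24 libraries in the summed class II genes (489 CPM) and in the summed macrophage markers (954 CPM). Of 8 tested B cell markers, 7 were lower in 129S1/SvImJ on each diet, and the 12 listed summed to 4.67 to 11.3 CPM in 129S1/SvImJ on HFD, against 11.8 to 39.3 CPM in C57BL/6J on HFD. Of 4 tested dendritic cell markers, 2 were lower in 129S1/SvImJ on each diet, and 1 T and NK cell marker of 12 could be tested. Of 6 tested cholangiocyte markers, 3 were lower in 129S1/SvImJ on HFD and 1 on chow, with medians of -1.24 and -0.85. Of 10 hepatocyte markers, 4 were higher in 129S1/SvImJ on HFD and 2 on chow, and 5 were lower on HFD than on chow in C57BL/6J (median -0.40) and 1 in 129S1/SvImJ. Of 10 sinusoidal endothelial markers, 4 were higher and 3 lower in 129S1/SvImJ on HFD, and 3 higher and 4 lower on chow. Of all tested genes, 17.9% were called higher in 129S1/SvImJ on HFD and 12.6% on chow. For diet, 7.2% were called lower on HFD in C57BL/6J and 5.01% in 129S1/SvImJ. Shares of a marker list near the background are no result about that list. The part of these cells in the class I or class II differences was not tested.

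**Figure D5:**
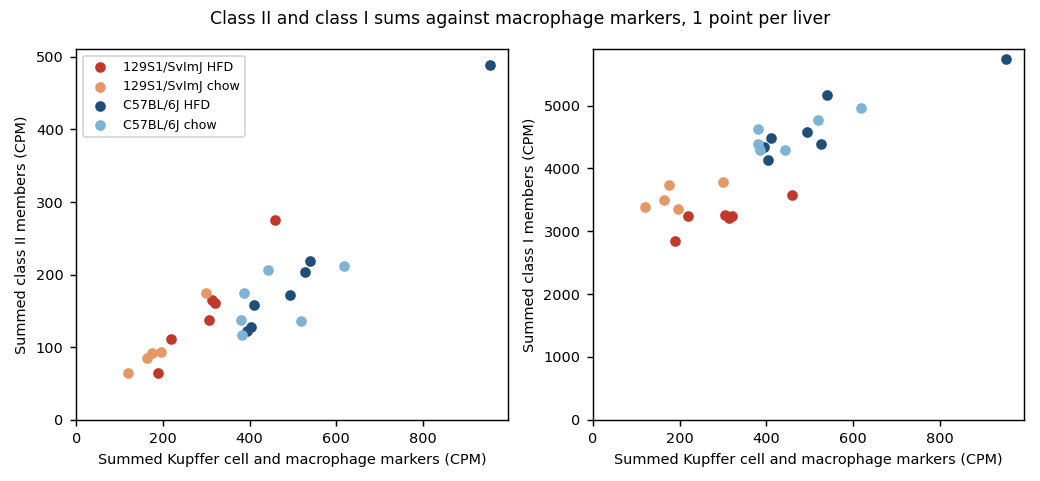
Summed CPM of the class II members (left) and class I members (right) against the summed CPM of 14 Kupffer cell and macrophage markers, 1 point per liver, coloured by group. Replicate 2 of C57BL/6J on HFD is the point at the upper right of both panels, and the class I sums of the 2 strains do not overlap.

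Genes that act on the same route but outside the rule were counted in the same way. Of 20 further genes of peptide supply and class I loading, 3 were higher and 3 lower in 129S1/SvImJ on HFD and 1 higher and 7 lower on chow, with medians of -0.01 and -0.16. These are 30% and 40% of the list, beside 37% and 25% of all tested genes. Psmb5, the constitutive proteasome subunit that Psmb8 replaces, was lower in 129S1/SvImJ on HFD (-0.74, edgeR adjusted p = 9.25e-05) and on chow (-0.64, edgeR adjusted p = 0.00237). On HFD against chow in 129S1/SvImJ, 3 of the 20 rose, among them Erap1, the peptidase that trims class I peptides (0.31, edgeR adjusted p = 0.00531), and 1 fell in C57BL/6J. Of all tested genes, 5.41% rose in 129S1/SvImJ and 7.2% fell in C57BL/6J.

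Of 18 tested MHC promoter factors and interferon-gamma signalling genes, 5 were lower and none higher in 129S1/SvImJ on HFD, and 5 were lower and 1 higher on chow. These are 27.8% and 33.3% of the list, beside 37% and 25% of all tested genes. They included Rfxank, a subunit of the RFX complex that binds the X element (-0.85 on HFD and -0.84 on chow, edgeR adjusted p = 6e-05 and 0.000396). For diet their median log2 fold change was -0.01 in 129S1/SvImJ and 0.02 in C57BL/6J. The summed level of the 20 listed genes was 614 to 696 CPM in 129S1/SvImJ on HFD against 625 to 758 CPM in C57BL/6J on HFD. On chow it was 624 to 674 CPM in 129S1/SvImJ against 680 to 708 CPM in C57BL/6J, without overlap. Of 14 genes of class II processing and transport, 5 were higher and 6 lower in 129S1/SvImJ on HFD and 1 higher and 4 lower on chow, or 78.6% and 35.7% of the list. Ctss, the cathepsin that trims Cd74, was lower in 129S1/SvImJ on chow (-1.63, edgeR adjusted p = 0.0022). Cd83 was also lower there (-2.59, edgeR adjusted p = 0.000275). For diet in C57BL/6J, 3 of the 14 were higher and 3 lower on HFD, or 42.9%, beside 14.9% of all tested genes. In 129S1/SvImJ, 2 were higher on HFD and none lower, or 14.3%, beside 10.4% of all tested genes. They included Cd83 (2.08, edgeR adjusted p = 0.00979).

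The neighbours of the members were counted as well. Between the outermost members on chromosome 17 (chr17:33915899-37483552, mm10) lie 142 other protein-coding genes, of which 76 were tested. On HFD, 6 of these were higher and 12 lower in 129S1/SvImJ, with a median log2 fold change of -0.07, and on chow 4 were higher and 6 lower, with a median of -0.00. These are 23.7% and 13.2% of the 76, beside 37% and 25% of all tested genes.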

How the data were processed

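RNA of 24 mouse livers was sequenced, 1 library per mouse. Per the labels' protocols, ribosomal RNA was removed and the library kit keeps the strand. The submitters' processing notes list mm10 as the genome and, as tools, STAR 2.5.4b, Trimmomatic 0.36, DESeq2 1.26.0 and Bowtie2 2.2.3, without their order or role. The authors deposited raw gene counts, and a variance-stabilized matrix on a log2 scale that served for 1 alternative. The sources used here name no read counter, annotation release or strand setting.

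Of 53677 gene identifiers, 53582 matched GENCODE M21, and the 95 others held 0.00747% of the counts. With edgeR 4.0.16 in R 4.3.3, filterByExpr kept 14533 genes, TMM set the library scaling, and a robust quasi-likelihood fit of the deposited counts gave each of the 4 groups its own mean. Calls needed an adjusted p below 0.05 (two-sided, Benjamini-Hochberg over all 14533 genes). Log2 fold changes used a prior count of 0.125. SEs were the size of the fold change over the square root of F, and intervals are 95%. CPM used the TMM-scaled library size, and CPM per kb the merged exon length. Motifs were searched in the 250 bases before RefSeq start sites.

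The members and gene lists were chosen with earlier results of these data known. Of the members, 20 were to be named whatever their p, along with every member called, and of other lists up to 3 called genes per comparison. The p-values measure the spread between mice, taken as independent, and the depth of 6707013 to 13124881 counts limits genes of few reads. The sample titles give each 129S1/SvImJ mouse an identifier number, 119 or 120 on chow and 109 or 113 on HFD. In C57BL/6J it is 58 or 61 on chow and 1 or 16 on HFD. What the number stands for is not stated, and no group shares a number with another. A likeness of mice with the same number was not modelled. Within groups no pair of libraries matched within sampling noise. The procedure was tested on simulated counts. Alternatives were DESeq2 1.42.0 and its size factors, limma 3.58.1 on the variance-stabilized values, other filters, only the groups compared, a replicate block, subsets of libraries by 7SK RNA or Adipoq level, and leaving out each library.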

Additional observations from a re-analysis of the deposited data

Results flagged for a closer look

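Single libraries stood far from the rest of their group in 24 of 116 group-wise checks of member levels and arm sums. For independent checks of normally distributed values, chance gives about 1 in 20, or 5.8. These checks are not independent, as class II genes shift together and the arm sums repeat their members. Replicate 2 of C57BL/6J on HFD was the highest of its group in 13 of the 24. In the class II arm it had 214 CPM of Cd74 (the others 60.2 to 97.0), 83.7 of H2-Aa (19.2 to 38.2), 71.0 of H2-Ab1 (17.7 to 33.1), 77.4 of H2-Eb1 (14.1 to 31.5), 9.75 of H2-DMa (2.23 to 3.94), 7.72 of H2-DMb1 (1.62 to 3.94) and 21.02 of Ciita (4.20 to 8.20), and a class II sum of 489 CPM (122 to 219). In the class I arm it had 1269.7 CPM of H2-K1 (879.9 to 932), 604 of H2-D1 (329.8 to 403), 72.7 of H2-T22 (48.7 to 55.1), 36.2 of Psmb9 (16.4 to 23.1) and 31.7 of Psmb8 (18.5 to 23.7). Its summed macrophage markers were 954 CPM, the highest of all libraries, and their part in these values was not tested.

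Replicate 3 of 129S1/SvImJ on chow was the highest of its group for Cd74 at 78.2 CPM, H2-Eb1 at 30.1, H2-DMa at 2.56 and the class II sum at 174. In the same group replicate 4 was the lowest for Tap1 at 16.3 CPM (the others 25.9 to 28.6) and replicate 5 the highest for H2-Q1 at 2.89 CPM.

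The other libraries that stood apart did so for 1 member each. In 129S1/SvImJ on HFD, replicate 5 had 21.7 CPM of Psmb8 (13.1 to 15.2) and replicate 3 had 985 CPM of H2-Q10 (1068 to 1092). In C57BL/6J on HFD, replicate 5 had 49.4 CPM of H2-Q1 (3.13 to 21.8). In C57BL/6J on chow, replicate 4 had 53.9 CPM of H2-Q7 (39.4 to 44.8) and replicate 3 had 65.9 CPM of H2-T22 (50.5 to 53.8).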

How the results depend on the processing

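No call of the members changed direction under the alternatives run, whereas some medians changed sign, as given here. Of the 39 calls, 39 were kept with DESeq2 size factors, a stricter filter or limma, 38 with DESeq2's test, 37 with only the groups compared, 37 with the replicate block, 36 with no filter, 35 in the 22 libraries below the largest gap of 7SK RNA, 34 without 2 libraries with Adipoq, 27 in the high part of the middle 7SK split and 20 in its low part. Fitting only the groups compared gained Ciita and H2-DMb1 for strain on chow, so that 4 of 8 tested class II genes were lower there, 18 members in all. DESeq2 called 1 member in the test between diet effects, H2-Q10, whose adjusted p ran from 0.00954 to 0.827 over the alternatives.

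Splitting the libraries at the middle gap of 7SK RNA was chosen after seeing the data. In the low part (10 libraries), 0 members were called for diet in 129S1/SvImJ, 0 for diet in C57BL/6J and 9 for strain on chow. There the class II median was 1.08 for diet in C57BL/6J, -1.48 for strain on HFD and -0.60 between the diet effects. Over all 24 libraries the class II median between the diet effects was 0.26. The class I median in the low part was -0.93 for strain on HFD and -0.34 between the diet effects. In the high part (14 libraries), 1 member was called for diet in 129S1/SvImJ and 1 for diet in C57BL/6J, and the class I median was -0.13 for diet in C57BL/6J and 0.19 between the diet effects. Groups of 2 to 5 livers remain in each part. At the largest gap, the high part held 2 libraries, both 129S1/SvImJ on chow, and could not be fitted. The low part lost Psmb9 for diet in 129S1/SvImJ and Psmb9, H2-Ob and H2-M3 for strain on chow, and gained H2-T23 for diet in C57BL/6J and Tap2 for strain on HFD. Without the 2 libraries above 0.5 CPM of Adipoq, also chosen after seeing the data, 1 member was called for diet in 129S1/SvImJ. The cause was not tested.

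Leaving out 1 library gave 1 to 5 calls for diet in 129S1/SvImJ (1 without replicate 1 of 129S1/SvImJ on chow, 5 without replicate 2 of C57BL/6J on HFD), 3 to 4 for diet in C57BL/6J, 14 to 19 for strain on HFD, 14 to 17 for strain on chow and 0 to 1 between the diet effects. Among the 27 tested members, calls gained in at least 1 such fit were H2-T23 for diet in each strain, Ciita and H2-DMa for diet in 129S1/SvImJ, B2m, Tap2 and H2-DMa for strain on HFD, Cd74 for strain on chow and H2-Q10 between the diet effects. The labels do not say that the replicate numbers pair the mice. Correlations of same-numbered deviations ran from -0.21 to 0.28. They exceeded 0.1 in 4 of 5 pairs for strain on chow and 2 of 6 for strain on HFD. For diet they did so in 1 of 5 pairs in 129S1/SvImJ and 1 of 6 in C57BL/6J. With the replicate block, 3 members were called for diet in 129S1/SvImJ, 3 for diet in C57BL/6J, 16 for strain on HFD, 15 for strain on chow and 0 between the diet effects. Class II genes of under 5 CPM are limited by their few reads.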

Other observations

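Of 11 H2- symbols that are not annotated as protein-coding, 5 had enough reads for a test and 3 had no count. H2-Bl averaged 20.8 ± 1.73 CPM in 129S1/SvImJ on HFD (SD, n = 6), 10.2 ± 1.95 in 129S1/SvImJ on chow (n = 5), 2.94 ± 0.788 in C57BL/6J on HFD (n = 7) and 0.678 ± 0.207 in C57BL/6J on chow (n = 6). Its strain log2 fold change was 2.83 on HFD and 3.88 on chow, and its diet log2 fold change 1.03 in 129S1/SvImJ and 2.07 in C57BL/6J (edgeR adjusted p = 1.56e-14, 2.3e-14, 2.91e-05 and 1.73e-07). H2-T10 was also higher in 129S1/SvImJ, by 1.04 on HFD and 0.77 on chow (edgeR adjusted p = 0.000968 and 0.0357). So was H2-T-ps, by 1.30 on HFD and 1.74 on chow (edgeR adjusted p = 0.012 and 0.019). Its group means were low, from 0.216 CPM in C57BL/6J on chow to 1.03 CPM in 129S1/SvImJ on HFD.

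H2-K2 averaged 1.86 ± 0.499 CPM in 129S1/SvImJ on HFD (SD, n = 6), against 5.59 ± 0.986 in 129S1/SvImJ on chow (n = 5), which is -1.59 on the log2 scale (edgeR adjusted p = 0.000262). Its strain log2 fold change was -1.34 on HFD and 0.11 on chow (edgeR adjusted p = 0.000113 and 0.788). H2-Q5 was lower in 129S1/SvImJ, by -2.02 on HFD and -2.12 on chow on the log2 scale (edgeR adjusted p = 3.42e-07 and 2.87e-06). The split of reads between these genes and their coding relatives is uncertain, and these genes were picked after their values were seen.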
